A study of Mus musculus with 32 samples.

Results

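Skeletal muscle replaces part of its translation machinery after birth with forms of its own, and 4 genes of the mouse tibialis anterior (TA) muscle that take part in this were followed here: *Rpl3*, *Rpl3l*, *Eef1a1* and *Eef1a2*. They were taken by symbol from the 54838 genes of the deposited table, and all 4 were found in it and passed the filter on low counts in every comparison. For both pairs the ratio of the muscle form to the broad form was also computed. The table holds 32 TA libraries, 4 each from wild-type (WT) and *Mtm1* knockout (KO) mice at postnatal days 1, 14, 21 and 35 (P1, P14, P21 and P35). Both genotypes had the strain background C57BL6/J. The KO was the deletion of *Mtm1* exon 4 in every cell, carried by hemizygous males, and the WT mice were littermates. *Mtm1* encodes myotubularin, a phosphatase of phosphoinositides whose loss causes X-linked myotubular myopathy. The labels number the replicates without naming animals, so *P*-values measure the spread between these libraries.

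RPL3 is a protein of the large ribosomal subunit that lies close to the site where peptide bonds are made. RPL3L is its close relative, made almost solely in heart and skeletal muscle, and a ribosome holds one or the other. EEF1A1 and EEF1A2 are both forms of the elongation factor that brings aminoacyl-tRNA to the ribosome. *Eef1a1* is active in most tissues, and *Eef1a2* takes over in muscle, heart and neurons during the first weeks of life.

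Library totals ranged from 49321035 to 85631408 counts, and mitochondrially encoded genes took from 2.99% to 17.9% of them. *Mtm1* fell from 20.6 ± 1.02 CPM (counts relative to the scaled library total; mean ± SD, n=4) in WT to 4.07 ± 0.32 in KO at P14 and from 22.1 ± 1.90 to 3.69 ± 0.27 at P35, and at P1 it was 5.51 ± 0.34 and 2.77 ± 0.76 (adjusted *P*=0.0669, edgeR). All 10 muscle fibre markers examined were present in every group, and their summed level ranged from 21200 to 39900 CPM at P1 and from 88500 to 218000 CPM later. Markers of keratinocytes summed to 1810 to 6710 CPM in the 8 libraries of P1 and to at most 7.09 CPM in the others. Of all P1 libraries, KO replicate 4 was the highest in *Rpl3* and *Eef1a1* and the lowest in *Rpl3l* and *Eef1a2*. It also had the lowest muscle fibre sum (21200 CPM), so KO against WT at P1 is also given without it. Dixon's test for outliers flagged 0 of the 48 groups of values tested.

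The members of each pair lie on different chromosomes. In GRCm38, *Rpl3* (ENSMUSG00000060036) spans chr15:80077791-80091868 on the minus strand and *Rpl3l* (ENSMUSG00000002500) spans chr17:24727820-24736143 on the plus strand. *Eef1a1* (ENSMUSG00000037742) lies at chr9:78478449-78489151 and *Eef1a2* (ENSMUSG00000016349) at chr2:181147653-181157014, both on the minus strand. Coding exons kept their lengths within a pair. *Rpl3* and *Rpl3l* both had 10 coding exons, of which only the last differed in coding length, at 42 and 54 bases. *Eef1a1* and *Eef1a2* both had 7, and again only the last differed, at 122 and 125 bases. The coding sequences were 73.5% identical between *Rpl3* and *Rpl3l* (888 of 1209 aligned bases) and 80.1% identical between *Eef1a1* and *Eef1a2* (1110 of 1386). The longest stretch without a difference was 22 bases in the first pair and 23 in the second, which bears on whether a read can be assigned to 1 member. The first 120 coding bases are shown for this reason, from the GRCm38 transcripts of GENCODE M21, with capitals where the members of a pair differ (31 positions in the first pair and 18 in the second).
Rpl3: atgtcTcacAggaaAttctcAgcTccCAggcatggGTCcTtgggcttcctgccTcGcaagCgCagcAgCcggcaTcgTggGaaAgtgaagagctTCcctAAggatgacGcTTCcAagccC
Rpl3l: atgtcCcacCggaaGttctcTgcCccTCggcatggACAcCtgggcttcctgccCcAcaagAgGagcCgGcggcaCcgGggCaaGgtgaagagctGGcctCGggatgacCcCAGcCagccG
Eef1a1: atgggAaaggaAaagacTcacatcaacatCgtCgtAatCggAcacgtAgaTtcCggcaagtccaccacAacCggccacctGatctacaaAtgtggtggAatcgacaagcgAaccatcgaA
Eef1a2: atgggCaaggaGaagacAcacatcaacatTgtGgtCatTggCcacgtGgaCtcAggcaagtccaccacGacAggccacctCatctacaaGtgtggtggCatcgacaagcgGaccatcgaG

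RSEM divides reads that match several genes among them, and the origin of such reads was not traced. Every *Rpl3* value and 31 of 32 *Eef1a1* values were not whole numbers, whereas all values of *Rpl3l* and *Eef1a2* were whole. *Rpl3* also overlaps the start of *Syngr1* on the opposite strand, and the sources used here do not say if counting was by strand. Adding the counts of all pseudogenes with at least 90% identity raised *Rpl3* by up to 6.08% (WT P1 replicate 2) and changed no call.

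Development of WT muscle was followed first, since it sets the levels with which the KO is compared. All values are CPM scaled by the trimmed mean of M-values (TMM). *Rpl3* was at 545.5, 501.5, 459 and 497.9 CPM in the 4 libraries of P1 and at 148.8, 150.4, 121.9 and 119.7 CPM at P14. It lay between 81.6 and 93.4 CPM at P21 and between 63.8 and 79.3 CPM at P35. The libraries of no 2 ages overlapped, and each age was lower than the one before it.

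*Eef1a1* followed the same course at a higher level. Its libraries held 4228 to 4963 CPM at P1, 1232 to 1558 CPM at P14, 596.5 to 753.5 CPM at P21 and 582.8 to 698.3 CPM at P35. Only P21 and P35 overlapped.

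The muscle forms went the other way, and nearly all of their change was complete by P14. *Rpl3l* stood at 20.5, 29.4, 22.4 and 21.1 CPM at P1 and at 453.3, 430.9, 538.8 and 581 CPM at P14. It then stayed within 498.6 to 623.4 CPM at P21 and 526.9 to 563.5 CPM at P35. *Eef1a2* was at 110.4 to 147.6 CPM at P1, 1750 to 2433 CPM at P14 and 1887 to 2191 CPM at P21. At P35 its libraries lay at 1534 to 1738 CPM, all under those of P21.

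**Figure D1:**
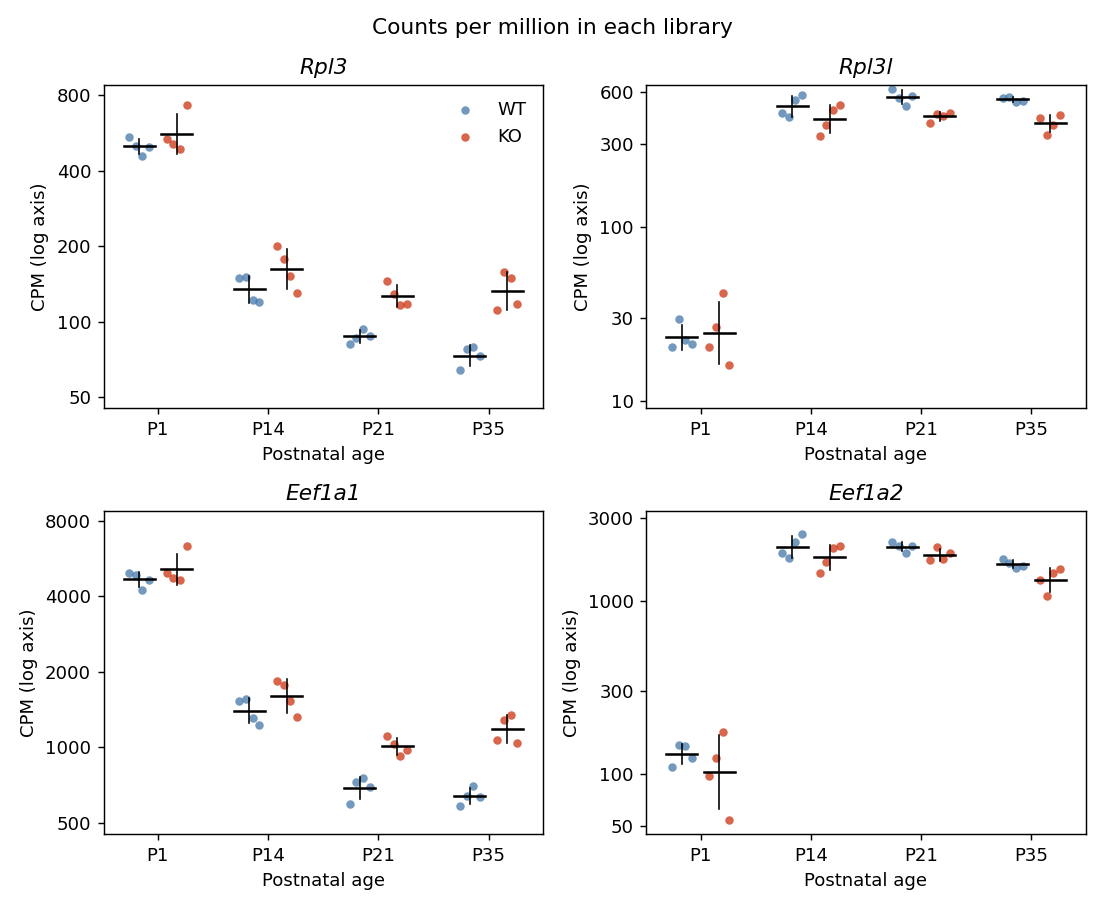
CPM of the 4 genes (log axis) by postnatal age, with 1 point per library, the geometric mean as a horizontal bar and the SD on the log2 scale as a vertical bar. *Rpl3* and *Eef1a1* fell after P1 while *Rpl3l* and *Eef1a2* rose, and at P21 and P35 the KO libraries of *Rpl3* and *Eef1a1* lay above those of WT.

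A gene was called where the adjusted *P*-value of edgeR's quasi-likelihood test was under 0.01 and the change exceeded 1.5-fold. From P1 to P14 in WT all 4 genes were called, beside 55.1% of all genes tested. *Rpl3* fell by 1.90 on the log2 scale (SE 0.10, adjusted *P*=2.41e-07) and *Eef1a1* fell by 1.74 (SE 0.12, adjusted *P*=1.06e-06). *Rpl3l* rose 21.3-fold (log2 fold change 4.41, SE 0.16, adjusted *P*=3.62e-08) and *Eef1a2* rose 15.6-fold (log2 fold change 3.96, SE 0.15, adjusted *P*=5.04e-08). From P14 to P21, when 5.53% of all genes were called, the broad forms fell further, with log2 fold changes of -0.64 for *Rpl3* (adjusted *P*=0.00213) and -1.03 for *Eef1a1* (adjusted *P*=0.000814). Neither muscle form passed the test in that step. With library totals the median of all genes from P1 to P14 was at -0.85, and the 4 calls of that step were kept. The libraries of successive ages were apart for 4 of 4 members from P1 to P14 (75.9% of all genes), for 2 of 4 from P14 to P21 (27.9%) and for *Rpl3* and *Eef1a2* from P21 to P35 (23.5%). From P21 to P35 none of the 4 was called, against 2.45% of all genes. The lowest adjusted *P* of that step was that of *Eef1a2*, at 0.0213 with a log2 fold change of -0.34. Over the whole course from P1 to P35, where 64.2% of genes were called, the log2 fold changes were -2.79 for *Rpl3*, -2.89 for *Eef1a1*, 4.53 for *Rpl3l* and 3.62 for *Eef1a2*.

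KO muscle passed through the same early step. From P1 to P14, *Rpl3* fell by 1.81 and *Eef1a1* by 1.71 on the log2 scale, and *Rpl3l* rose 16.01-fold and *Eef1a2* 15.7-fold (all 4 called, against 52.6% of genes, and all 4 without overlap, against 70.3%). From P14 to P21 *Eef1a1* fell by 0.69 (SE 0.12, adjusted *P*=0.00464) and was the 1 member called, beside 7.04% of genes, and the 1 without overlap, beside 28.7%. That call was lost when any library other than KO P14 replicate 4 was left out, with adjusted *P* between 0.0105 and 0.0194. *Rpl3* had a log2 fold change of -0.39 in this step (adjusted *P*=0.0528) and its libraries of both ages overlapped. From P21 to P35 none of the 4 was called, against 4.01% of genes, and only *Eef1a2* did not overlap, against 27.1%. In this last step the log2 fold changes of the broad forms were 0.09 for *Rpl3* and 0.25 for *Eef1a1*, and those of the muscle forms were -0.11 for *Rpl3l* and -0.45 for *Eef1a2* (adjusted *P*=0.0248). From P1 to P35 they were -2.10 for *Rpl3*, -2.15 for *Eef1a1*, 3.91 for *Rpl3l* and 3.55 for *Eef1a2*, all called beside 57.1% of genes.

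KO was then compared with WT at each age. At P1 no member was called, as for nearly all genes (0.0442% called). *Rpl3* measured 537.6, 512.8, 487.8 and 734.4 CPM in KO, of which replicate 4 was the highest of all P1 libraries. *Rpl3l* measured 20.2, 26.6, 41.8 and 16 CPM and *Eef1a2* 97.8, 123.1, 174.1 and 54.1 CPM, with replicate 4 the lowest of all P1 libraries for both. The log2 fold changes were 0.20 for *Rpl3*, 0.18 for *Rpl3l*, 0.16 for *Eef1a1* and -0.22 for *Eef1a2* (adjusted *P* from 0.630 to 0.823), and the genotypes overlapped in all 4, whereas 8.63% of genes did not overlap. Without KO replicate 4 the values were 0.047 for *Rpl3*, 0.047 for *Eef1a1*, 0.01 for *Eef1a2* and 0.35 for *Rpl3l*, and without KO replicate 3 that of *Rpl3l* was -0.15.

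At P14 the libraries of both genotypes again overlapped for every member, and none was called (0.0318% of genes were called and 4.85% did not overlap). KO libraries held 199.6, 177, 152 and 130.3 CPM of *Rpl3* and 337.1, 389.3, 472.8 and 508.4 CPM of *Rpl3l*. The log2 fold changes were 0.28 for *Rpl3* (SE 0.14), -0.23 for *Rpl3l* (SE 0.15), 0.20 for *Eef1a1* (SE 0.13) and -0.21 for *Eef1a2* (SE 0.15), with adjusted *P* from 0.777 to 0.894.

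At P21 the broad forms stood apart by genotype. *Rpl3* lay at 145.3, 128.8, 116 and 118 CPM in the KO libraries, all above the highest WT library at 93.4 CPM. *Eef1a1* lay at 1110, 1028, 926.4 and 977.4 CPM in KO, again all above WT (at most 753.5 CPM). Their log2 fold changes were 0.55 for *Rpl3* (SE 0.08, adjusted *P*=0.00242) and 0.55 for *Eef1a1* (SE 0.10, adjusted *P*=0.00434), or 1.46-fold and 1.47-fold, so that both passed the *P*-value, as did 8.13% of all genes, but not the fold threshold. *Rpl3l* measured 398 to 456.4 CPM in KO and 498.6 to 623.4 CPM in WT, without overlap (-0.36 on the log2 scale, SE 0.08, adjusted *P*=0.0135). *Eef1a2* overlapped between genotypes, at 1711 to 2037 CPM in KO and 1887 to 2191 CPM in WT (log2 fold change -0.14, adjusted *P*=0.272). No member was thus called, beside 4.67% of genes, and 3 of 4 did not overlap, beside 24.7% of genes. Both broad forms were called when libraries were scaled by their totals, with log2 fold changes of 0.73 and 0.74. *Eef1a1* was also called without WT replicate 3 (0.59), and both were called without KO replicate 3 (0.59 each).

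At P35 *Rpl3* and *Eef1a1* were higher in KO and were called, beside 16% of all genes and 8.49% of all genes called as higher. *Rpl3* measured 111, 158, 149.3 and 118 CPM in KO against 63.8, 77.5, 79.3 and 73.2 CPM in WT, which is 1.86-fold (log2 fold change 0.89, SE 0.13, adjusted *P*=0.000674). *Eef1a1* measured 1071, 1284, 1349 and 1044 CPM in KO against 582.8, 641.9, 698.3 and 634.5 CPM in WT, which is 1.89-fold (log2 fold change 0.92, SE 0.11, adjusted *P*=0.000334). Both calls were kept whichever library was left out. The KO means of P35 were 134 CPM for *Rpl3* and 1187 CPM for *Eef1a1*, and the WT means of P14 were 135 CPM and 1409 CPM. The lowest WT library of P14 held 1232 CPM of *Eef1a1*. For *Rpl3l* and *Eef1a2* the KO means of P35 were 398 and 1333 CPM, and the WT means of P14 were 501 and 2065 CPM. Likeness to an earlier age was not tested.

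The muscle forms were at lower values in KO at P35 without passing both thresholds. *Rpl3l* measured 422.7, 341.8, 386 and 441.8 CPM in KO against 526.9 to 563.5 CPM in WT (log2 fold change -0.43, SE 0.09, adjusted *P*=0.00514, 0.743-fold), which passed the *P*-value as did 24.5% of genes. *Eef1a2* measured 1310, 1060, 1440 and 1521 CPM in KO against 1534 to 1738 CPM in WT (log2 fold change -0.27, SE 0.12, adjusted *P*=0.106). All 4 members were without overlap between genotypes at P35, beside 39.6% of all genes tested. Scaling by library totals moved the median of all genes from 0.035 to 0.44 at P35 and from 0.008 to 0.20 at P21. Under it *Rpl3* was at 1.30 and *Eef1a1* at 1.32 at P35, *Rpl3l* was at -0.03, and *Eef1a2* changed sign to 0.13 at P35 and 0.05 at P21.

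**Figure D2:**
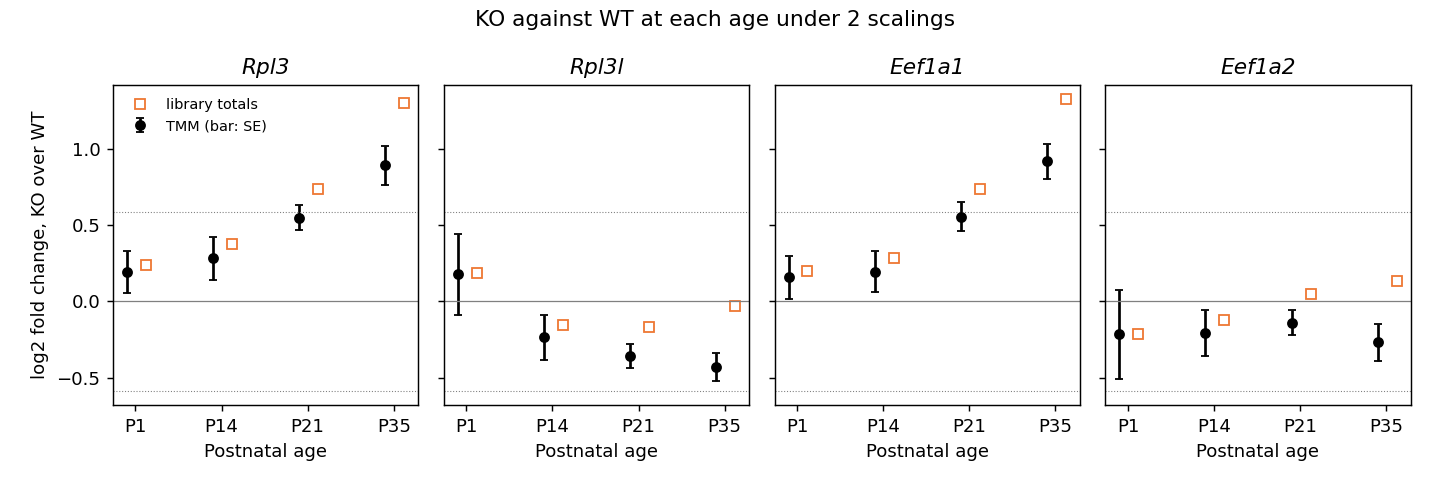
Log2 fold change of KO over WT for each gene at each age, with TMM scaling as filled points (bars are SE) and with library totals as open squares, and the 1.5-fold limits as dotted lines. *Rpl3* and *Eef1a1* exceeded 1.5-fold at P35 under both scalings, whereas *Eef1a2* was below 0 at P35 under TMM and above 0 under library totals.

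Markers of several cell types in the sample moved with genotype as well. The counts below stand beside 16% of all genes called at P35 (8.49% as higher) and 4.67% at P21. Summed markers of macrophages ranged from 102 to 124 CPM in WT and from 133 to 202 CPM in KO at P35, with 5 of 8 genes called higher and all 8 detected. Fat cell markers summed to 1.98 to 8.34 CPM in WT and 12.7 to 48.3 CPM in KO at P35, with 3 of 4 called higher. Muscle fibre markers summed to 137000 to 203000 CPM in WT and 88500 to 128000 CPM in KO, with 1 of 10 called lower, the skeletal actin gene *Acta1* (log2 fold change -0.76, adjusted *P*=0.00641). Of these 10, 4 had an adjusted *P* under 0.05 (median log2 fold change -0.55), and 1172 of all 15595 genes tested were called as lower. At P21 the macrophage sums were 102 to 124 CPM in WT and 137 to 169 CPM in KO, with 3 of 8 called higher. Fibroblast markers overlapped between genotypes at both ages and none of 6 was called. Satellite cell markers summed to 20.6 to 21.5 CPM in WT and 13 to 13.8 CPM in KO at P21 and to 17.4 to 20.8 CPM and 11 to 16.4 CPM at P35, with 2 of 4 called lower at both ages. Endothelial markers summed to 320 to 607 CPM in WT and 298 to 376 CPM in KO at P35, with 2 of 5 called lower. At P21 they summed to 554 to 832 CPM in WT and 442 to 521 CPM in KO, without overlap. None of the 5 was called at P21, although 3 had an adjusted *P* under 0.05 (median log2 fold change -0.42). Markers of Schwann cells and nerve summed to 47.6 to 399 CPM in WT and 208 to 873 CPM in KO at P35, and none of the 6 tested was called, although 4 had an adjusted *P* under 0.05 (median log2 fold change 1.60). Markers moved with age as well. In WT, fibroblast markers summed to 17600 to 24000 CPM at P1 and 5700 to 11900 CPM at P14 (5 of 6 called lower, 55.1% of all genes called). Erythroid markers in WT summed to 442 to 755 CPM at P14, 3170 to 4350 CPM at P21 and 189 to 584 CPM at P35. All 5 were called higher and then lower, beside 5.53% and 2.45% of all genes. In bulk RNA fewer cells of a type and less RNA per cell cannot be told apart, and the part of these cell types in the 4 genes' values was not tested.

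A ratio within a library does not depend on how libraries are scaled, so each pair was also read that way, as the log2 of counts per kb of exon in the muscle form over the broad form. In WT, *Rpl3l* was at 0.0725, 0.113, 0.0944 and 0.0820 of *Rpl3* at P1, and at 5.89, 5.54, 8.54 and 9.38 times *Rpl3* at P14. The geometric mean reached 12.4 at P21 and 14.4 at P35. *Eef1a2* was at 0.0266 to 0.0409 of *Eef1a1* at P1 and exceeded it in every WT library of P14, at 1.34 to 2.36. Its geometric mean was 3.55 at P21 and 3.05 at P35. Both ratios thus crossed 1 between P1 and P14, by 80.1-fold for *Rpl3l* to *Rpl3* and 52.3-fold for *Eef1a2* to *Eef1a1*.

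The geometric means crossed 1 in KO as well, at 59.3-fold and 55.2-fold. In KO replicate 1 of P14, however, *Eef1a2* was at 0.9375 of *Eef1a1*. From P14 to P21 the ratio of *Rpl3l* to *Rpl3* was 1.74-fold higher in WT and 1.33-fold higher in KO, and that of *Eef1a2* to *Eef1a1* 2.03-fold and 1.65-fold higher. In WT every P21 library was above every P14 library for both ratios. In KO the libraries of both ages overlapped, for *Eef1a2* to *Eef1a1* by 1 library of each (at most 1.88 at P14 and at least 1.84 at P21). From P21 to P35 the WT libraries overlapped for both ratios. In KO the ratio of *Eef1a2* to *Eef1a1* was lower in every P35 library (0.987 to 1.74) than in every P21 library (1.84 to 2.37). The difference between genotypes in these steps of the ratios was not tested.

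Between genotypes the 2 ratios overlapped at P1 and P14 and were apart at P21 and P35. *Rpl3l* to *Rpl3* was 5.29, 6.72, 7.31 and 7.47 in KO at P21, against 10.3 to 14.8 in WT. At P35 it was 7.36, 4.18, 4.997 and 7.24 in KO, against 12.8 to 16.9 in WT. The difference in log2 ratio was -0.90 (SE 0.16) at P21 and -1.32 (SE 0.22) at P35, a ratio 1.87-fold and 2.49-fold higher in WT.

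*Eef1a2* to *Eef1a1* was 1.84, 2.37, 2.24 and 2.32 in KO at P21, against 2.996 to 4.39 in WT. At P35 it was 1.46, 0.987, 1.28 and 1.74 in KO, against 2.63 to 3.57 in WT. Here the differences were -0.70 (SE 0.14) at P21 and -1.19 (SE 0.20) at P35. Each of these 4 differences had *P*=0.0286 by the two-sided exact permutation test, the smallest that 4 against 4 libraries allow, and an adjusted *P* of 0.0571 over the 8 comparisons of ratio and age. At P14 the differences were -0.51 (SE 0.33, exact *P*=0.171) and -0.40 (SE 0.30, exact *P*=0.257), and at P1 they were -0.08 (SE 0.44, exact *P*=0.886) and -0.48 (SE 0.47, exact *P*=0.400). Without KO replicate 4 those of P1 were 0.25 and -0.066, and without KO replicate 3 they were -0.40 and -0.77. At P14 the libraries of equal number were taken as pairs, and in a comparison added after seeing the data both ratios were lower in KO in 4 of 4 pairs. The paired SE was 0.12 for *Rpl3l* to *Rpl3* and 0.087 for *Eef1a2* to *Eef1a1*, and the two-sided exact permutation test over the signs of the 4 differences gave *P*=0.125 for each, the smallest it allows. Without KO replicate 1 the differences at P14 were -0.31 and -0.23, and without WT replicate 4 that of *Eef1a2* to *Eef1a1* was -0.25.

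**Figure D3:**
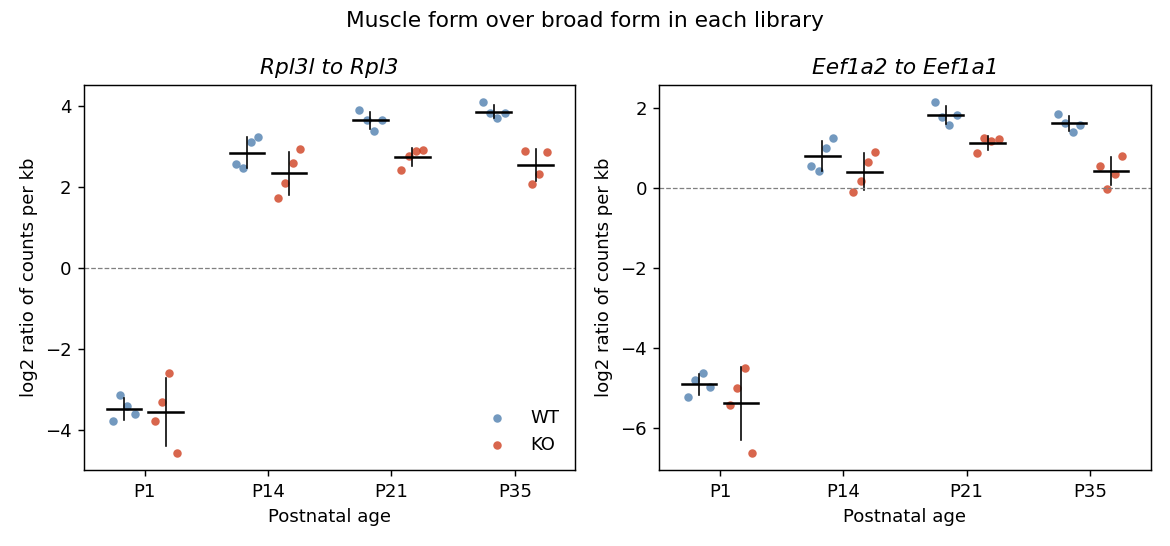
Log2 ratio of counts per kb, muscle form over broad form, by postnatal age, with 1 point per library, the mean as a horizontal bar, the SD as a vertical bar and equal levels as the dashed line. The means of both ratios crossed 0 between P1 and P14 in both genotypes. KO replicate 1 of P14 was still at -0.093 for *Eef1a2* to *Eef1a1*. At P21 and P35 every KO library lay under every WT library.

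The level of a ratio depends on the length assigned to each gene. The exons of all *Rpl3* transcripts together cover 3175 bases, while its longest coding transcript has 1351. With the longest coding transcripts, every *Rpl3l* to *Rpl3* ratio was 1.97-fold lower and every *Eef1a2* to *Eef1a1* ratio 1.39-fold lower, so that the geometric means in WT at P35 were 7.32 and 2.196, and differences between groups were the same. In KO at P35 the geometric mean of *Eef1a2* to *Eef1a1* was 1.34 with all exons and 0.964 with the longest transcript. In KO at P14 it was 1.33 and 0.955, so its crossing of 1 by P14 in KO depends on the length used. WT replicate 2 of P14 was at 1.34 with all exons and 0.967 with the longest transcript. The order of levels per kb of exon in WT at P35 was *Eef1a2* (782 ± 42.2 CPM per kb), *Rpl3l* (332 ± 10.9), *Eef1a1* (257 ± 19.0) and *Rpl3* (23.1 ± 2.18). In KO at P35 *Eef1a1* (476 ± 61.2) was above *Rpl3l* (242 ± 26.9), and *Eef1a2* (639 ± 96.7) overlapped *Eef1a1* over the libraries. At P1 the order in WT was *Eef1a1* (1880 ± 132.5), *Rpl3* (158 ± 11.1), *Eef1a2* (63.1 ± 8.45) and *Rpl3l* (14.2 ± 2.49).

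Whether the KO effect itself changed between ages was tested as an interaction over all 32 libraries. None of the 4 genes passed an adjusted *P* of 0.01 in any of the 3 steps, against 0.0161%, 0.425% and 0.463% of genes from P1 to P14, from P14 to P21 and from P21 to P35. The change of the effect on the log2 scale was 0.35 for *Eef1a1* from P14 to P21 (SE 0.17, adjusted *P*=0.391) and 0.35 from P21 to P35 (SE 0.17, adjusted *P*=0.290), and 0.26 and 0.33 for *Rpl3* (adjusted *P*=0.635 and 0.379). The larger effects at P35 than at P21 are therefore not shown to differ.

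The other genes of the ribosome and of elongation were set beside the members. In WT from P1 to P35, 40 of 46 genes of the large subunit and 29 of 32 of the small subunit were called as lower, with medians of -0.93 and -0.94 against -0.14 for all genes, of which 35.4% were called as lower. *Rpl3* had the lowest value of the 79 ribosomal protein genes in this comparison, at -2.79, and the lowest of the other 78 was *Rps19* at -1.75. In KO against WT no other ribosomal protein gene was called at P21, although 57 of 78 had an adjusted *P* under 0.05 and all 78 were above 0 (median 0.25), beside 21% of all genes with such a *P* and a median of 0.008. At P35, 7 of 46 and 6 of 32 were called, all higher, beside 16% of all genes called and 8.49% called as higher. Of the 78, 77 were above 0 (median 0.45 against 0.035 for all genes tested). *Rpl13a* (0.74), *Rpl36a* (0.70), *Rps12* (0.65) and *Rps27a* (0.65) were at the high end of those called, and *Rpl39* (0.61), *Rpl21* (0.62), *Rps21* (0.60) and *Rps16* (0.62) at the low end. These counts moved from 4 to 12 and from 1 to 9 with single libraries left out, and were lowest without WT or KO replicate 3 (4 large and 3 small without the first, 4 and 1 without the second). They were 12 and 9 without WT replicate 2, and 11 and 8 without KO replicate 1 or without KO replicate 2. *Rpl3* was the highest of the 79 at P14, P21 and P35 and the 24th at P1, and its difference from the others was not tested.

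**Figure D4:**
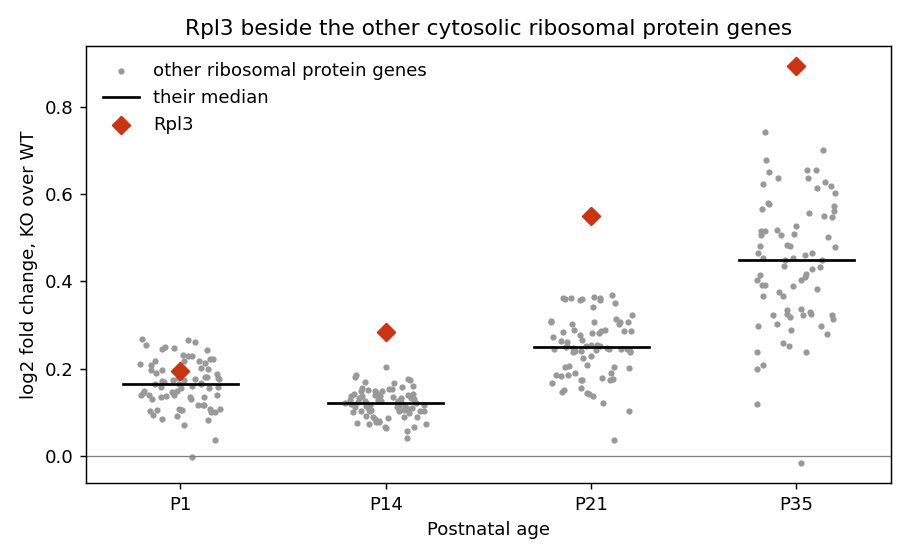
Log2 fold change of KO over WT at each age for *Rpl3* (diamond) and the other 78 genes of cytosolic ribosomal proteins (grey points), with the median of the 78 as a bar. At P35 *Rpl3* was at 0.89, the others had a median of 0.45, and the highest of them was *Rpl13a* at 0.74.

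Among 9 other genes of elongation 1 was called at P35 and none at P21, beside 16% and 4.67% of all genes tested. It was *Eef1b2*, part of the exchange factor that reloads EEF1A with GTP, at 0.61 on the log2 scale (SE 0.10, adjusted *P*=0.00143), and it was not called without WT or KO replicate 3. *Eef2*, the factor that moves the ribosome along the mRNA, measured 1182 CPM in WT and 1231 CPM in KO at P35 (adjusted *P*=0.530). *Eef1g*, another part of the exchange factor, was at 576 and 609 CPM (adjusted *P*=0.321). In WT from P1 to P35, *Eef1b2* fell by 1.08 and *Eef1e1*, a component of the tRNA synthetase complex, rose by 1.16 on the log2 scale. In that step 2 of the 9 were called, beside 64.2% of all genes. Of 7 further ribosomal protein paralogues, 5 were tested at P35 and none was called, beside 16% of all genes. *Rps27l* was closest (0.43, adjusted *P*=0.0116). From P1 to P35 in WT 6 of the 7 were tested, of which *Rps27l* rose (0.77), and *Rps4l* (-2.59) and *Rpl39l* (-4.17) fell. Of these 6, 3 were called, beside the same 64.2% of all genes.

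None of 8 genes that chaperone or modify RPL3 and EEF1A was called in KO at P21 or P35, beside 4.67% and 16% of all genes. *Eef1akmt2*, a lysine methyltransferase of EEF1A, passed the *P*-value but not the fold threshold at P35 (0.51, adjusted *P*=0.00298). *Mettl18*, which methylates RPL3, measured 3.701 CPM in WT and 3.64 CPM in KO (adjusted *P*=0.996). In WT from P1 to P35 *Mettl18* (1.49), *Eef1akmt1* (0.86) and *Zpr1* (0.78) rose and *Eef1akmt3* (-3.02) fell. In that step 4 of the 8 were called, beside 64.2% of all genes. None of 32 initiation factor genes was called at P21 or P35 (4.67% and 16% of all genes), with medians of 0.15 and 0.08. From P1 to P35 in WT 12 of these 32 were called as higher and 3 as lower, beside 28.8% and 35.4% of all genes. Under library totals, which moved the median of all genes to -1.15 in that comparison, 1 of the 32 was called as higher and 17 as lower, and no gene of the paralogue, elongation and handling lists was called as higher.

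Skeletal muscle exchanges broad for muscle forms in other enzymes after birth, and 7 such pairs were read in the same way. From P1 to P35 in WT the log2 ratio of muscle to broad form grew by 3.33 (*Cox7a1* to *Cox7a2*) to 4.34 (*Cox8b* to *Cox8a*) in these pairs, against 7.33 for *Rpl3l* to *Rpl3* and 6.51 for *Eef1a2* to *Eef1a1*. At P21 the difference between genotypes was -0.89 for *Ckm* to *Ckb*, -0.60 for *Pgam2* to *Pgam1* and -0.29 to -0.04 for the other 5, with overlap in all 7, beside -0.90 and -0.70 without overlap in the translation pairs. At P35 they were apart in 6 of the 7, all but *Cox7a1* to *Cox7a2*, with lower ratios in KO. Of single genes, 24.7% did not overlap at P21 and 39.6% at P35, and no such share was computed for ratios of gene pairs. The difference was largest for the creatine kinases, *Ckm* to *Ckb*, at -1.64, followed by *Rpl3l* to *Rpl3* at -1.32, *Eef1a2* to *Eef1a1* at -1.19 and the phosphoglycerate mutases, *Pgam2* to *Pgam1*, at -1.01. In the creatine kinase pair it was the broad form that was called at P35 (*Ckb*, 0.97, adjusted *P*=0.00100), as in the translation pairs. In the enolase, mutase and nucleotide carrier pairs it was the muscle form, with *Eno3* at -0.77, *Pgam2* at -0.84 and *Slc25a4* at -0.71. *Pgam2* was also the 1 gene of these pairs called at P21 (-0.68, adjusted *P*=0.00313). These calls stand beside 4.67% of all genes called at P21 and 16% at P35. The ratios of the 9 pairs were not tested against each other.

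**Figure D5:**
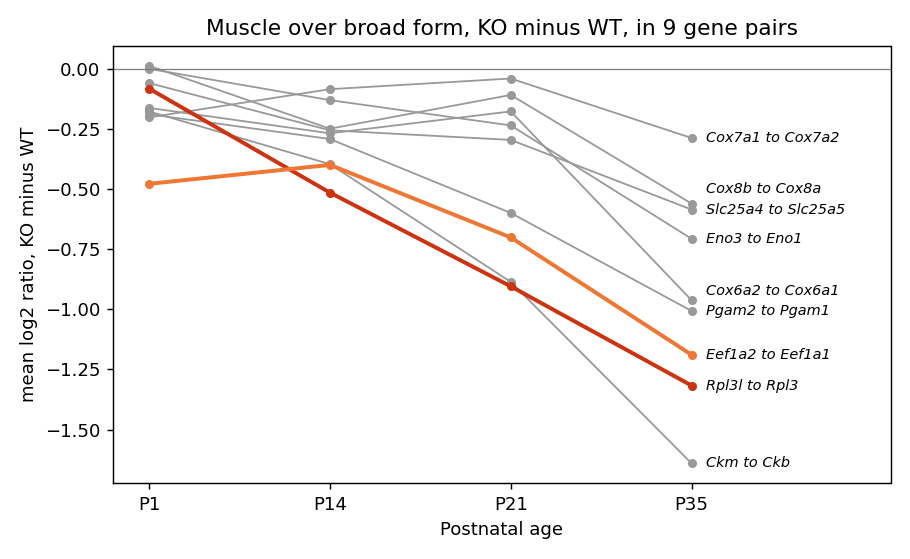
Mean log2 ratio of muscle to broad form in KO minus that in WT at each age for 9 gene pairs, with the translation pairs in colour and the other 7 in grey. At P35 the values ran from -0.29 for *Cox7a1* to *Cox7a2* to -1.64 for *Ckm* to *Ckb*, with -1.32 and -1.19 for the translation pairs.

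The genes whose pattern over the 32 libraries was most like each member were found by Pearson's r of log2 CPM among 8427 protein-coding genes with a mean of at least 10 CPM. The libraries fall into clusters by age, so these values mostly describe age. *Rpl3* was most like *Eef1a1* (r=0.99), followed by *Rps19* and *Ilk*, and *Eef1a1* was most like *Rpl3*, followed by *Ppib* and *Rps4x*. *Rpl3l* was most like *Me3*, *Tmem38a* and *Pvalb*, and *Eef1a2* was most like *Myh4*, *Asb16* and *Fxyd1*. *Myh4* encodes the myosin heavy chain of the fastest fibres, *Pvalb* the calcium buffer parvalbumin and *Tmem38a* a cation channel of the sarcoplasmic reticulum. The r between *Rpl3l* and *Eef1a2* was 0.99, that between *Rpl3* and *Rpl3l* was -0.95 and that between *Eef1a1* and *Eef1a2* was -0.91.

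Since *Rpl3l* and *Eef1a2* rose together, the 250 bases before their annotated starts were searched on both strands for CAGCTG, a form of the E-box bound by myogenic factors, and for TATAAA, in the RefSeq promoters of GRCm38.p6, which held 3 of the 4 genes. CAGCTG is found in 13% and TATAAA in 12.4% of 32851 such promoters. *Rpl3l* had 1 CAGCTG, which starts 20 bases before the RefSeq start, and *Eef1a1* and *Eef1a2* had neither motif in this window. A second RefSeq entry of *Rpl3l*, at chr17:24732435-24732734, also had neither. The stretch around the CAGCTG, chr17:24727746-24727825 on the plus strand, is shown with the motif in capitals. The GENCODE start of *Rpl3l*, chr17:24727820, lies within this stretch, so its last bases belong to the GENCODE transcript.
Rpl3l promoter: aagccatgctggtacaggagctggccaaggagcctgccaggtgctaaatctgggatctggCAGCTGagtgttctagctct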

How the data were processed

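The authors deposited a single table of expected counts for every gene in every library, estimated by RSEM 1.2.22 after alignment to GRCm38 with STAR 2.6.1 (versions from the submitters' processing notes), from poly(A) RNA in directional paired-end libraries. Their methods name HTSeq as counter. The strand setting and annotation release are not given in the sources used here. Expected counts share out reads that align to several genes. Symbols and coordinates came from GENCODE M21 (54809 of 54838 genes matched), and replicates were not pooled. The methods list 14, 21 and 35 days, and P1 comes from the labels.

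Counts were rounded, filtered (filterByExpr), scaled by TMM and tested for each pair of groups with edgeR 4.0.16 in R 4.3.3 (glmQLFit and glmQLFTest). Tests were two-sided, and *P*-values were adjusted across all genes tested by the Benjamini-Hochberg method. CPM values were scaled over all 32 libraries. Ratios used unrounded counts and the exact permutation test in scipy 1.17.1. Coding sequences were aligned with MAFFT 7.526, and pseudogenes were found with BLAST+ 2.17.0. The test was first tested on simulated data made from the P21 libraries, scored by the adjusted *P* without the fold threshold. The alternatives were DESeq2 1.42.0, RLE size factors, library totals, no count filter, at least 10 counts in every library, 1 fit of all libraries, no mitochondrially encoded genes, an adjusted *P* under 0.05 with no fold threshold, added pseudogene counts, the replicate block and leaving out each library. Pairing the ratios at P14 was added after seeing the data.

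Replicate numbers come from the labels. Same-numbered WT and KO libraries deviated together at P14 (r from 0.19 to 0.588 in the 4 pairs), so the numbers were taken as pairs there, but not at the other ages (mean r from -0.14 to 0.073). No replicates agreed within sampling noise. The members and lists were chosen with earlier results of these data known. Genes named are the 4 members, *Mtm1*, the called genes of each translation list with the 2 largest and 2 smallest changes (all of a list under 10), the 7 other pairs, the 3 genes most like each member and marker genes. *Eef2*, *Eef1g*, *Rps27l*, *Eef1akmt2* and *Mettl18* were added after their values were seen.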

Additional observations from a re-analysis of the deposited data

How the results depend on the processing

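The calls of *Rpl3* and *Eef1a1* at P35 were kept under all alternatives run, and leaving out libraries gave 0.80 to 0.97 and 0.84 to 0.96. Scaling by library totals gave the broad forms 0.73 (*Rpl3*) and 0.74 (*Eef1a1*) at P21, both called, and turned *Eef1a2* to 0.051 at P21 and 0.13 at P35. It also turned the KO step from P14 to P21 to -0.0088 for *Rpl3l* and -0.0012 for *Eef1a2*, the KO step from P21 to P35 to 0.019 for *Rpl3l*, and the change of the KO effect from P21 to P35 to 0.14 for *Rpl3l* and 0.082 for *Eef1a2*. With adjusted *P* under 0.05 and no fold threshold, *Rpl3* (0.55), *Eef1a1* (0.55) and *Rpl3l* (-0.36) passed at P21, *Rpl3l* (-0.43) at P35, and *Eef1a2* from P21 to P35 in WT (-0.34) and KO (-0.45).

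The replicate block ended the calls from P14 to P21 of *Rpl3* (-0.63, adjusted *P*=0.0198) and *Eef1a1* (-1.03, adjusted *P*=0.0125) in WT and of *Eef1a1* in KO (-0.68, adjusted *P*=0.0122), and changed no other call of the members. The labels number replicates without naming pairs, and the pairing at P14 was taken from these same data. There the block gave 0.27 for *Rpl3* (adjusted *P*=0.0187), -0.24 for *Rpl3l* (0.0350), 0.19 for *Eef1a1* (0.0785) and -0.21 for *Eef1a2* (0.0973). Of all genes, 0.623% were called at P14 with the block and 0.0318% without it.

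With single libraries left out, KO against WT ranged at P1 from -0.15 to 0.35 for *Rpl3l* and from -0.51 to 0.015 for *Eef1a2*, and at P21 from 0.49 to 0.59 for *Rpl3* and from 0.47 to 0.59 for *Eef1a1*. From P14 to P21 the ranges were -0.10 to 0.079 for *Eef1a2* in WT, and in KO -0.073 to 0.11 for *Rpl3l*, -0.78 to -0.61 for *Eef1a1* and -0.057 to 0.096 for *Eef1a2*. The change of the KO effect ranged from P1 to P14 from -0.0031 to 0.25 for *Rpl3*, from -0.018 to 0.16 for *Eef1a1* and from -0.21 to 0.32 for *Eef1a2*, and from P14 to P21 from -0.04 to 0.13 for *Eef1a2*. Genes called at P35 ranged from 4 to 12 in the large subunit, 1 to 9 in the small subunit, 0 to 1 in elongation, 0 to 1 in the handling of RPL3 and EEF1A and 0 to 1 in initiation.

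Library totals gave at P35 45 large subunit genes, 31 small subunit genes, 3 ribosomal paralogues, 4 elongation genes, 3 handling genes and 9 initiation factors called, at P21 1 ribosomal paralogue and 1 initiation factor, and from P1 to P35 in WT 5 ribosomal paralogues and 7 elongation genes. Of all genes, 30% were called under library totals at P35, 7.62% at P21 and 73.7% from P1 to P35 in WT. With single libraries left out, the KO difference of *Rpl3l* to *Rpl3* lay at P1 within -0.40 to 0.25 and at P14 within -0.71 to -0.31, and later within -0.99 to -0.79 (P21) and -1.43 to -1.16 (P35). For *Eef1a2* to *Eef1a1* it lay within -0.77 to -0.066 (P1), -0.56 to -0.23 (P14), -0.78 to -0.60 (P21) and -1.32 to -1.04 (P35). Pairing the ratios at P14, added after seeing the data, gave SE of 0.12 and 0.087. It cannot move the mean differences of -0.51 and -0.40, since every library had a partner. The causes were not tested.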
